A study of Mus musculus with 2 samples.

Results

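The genes described here are 9 enzymes that break down the aromatic amino acids in liver, taken by symbol from the 32285 genes listed in each of 2 single-cell RNA-seq libraries. Tyrosine is first stripped of its amino group and its ring is then opened and cleaved to products that enter energy metabolism, in a branch represented here by Tat, Hpd, Hgd and Fah. Tryptophan is oxidized along the kynurenine branch, represented by Tdo2, Afmid, Kmo, Kynu and Haao, which ends in a precursor of NAD. Hepatocytes carry most of the body's capacity for both branches, and the genes of the opening steps, Tat and Tdo2, are textbook targets of glucocorticoids. All 9 symbols matched 1 row of each library.

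The WT library came from the liver of control mice and the N-LKO library from liver together with tumor of mice that lack NgBR (the Nus1 product, a subunit of cis-prenyltransferase, which synthesizes dolichol) in cells expressing albumin-Cre. Both groups were male mice on a C57BL6 background, kept on chow and then on a lipid-rich diet for 16 weeks, which the sample titles call HFD and the treatment labels call WD. The study's methods state that liver cells were released with collagenase, that hepatocytes were mixed with nonparenchymal cells before loading, and that tumor cells were added for N-LKO only. Each group had 1 library, so genotype, tumor tissue and library cannot be told apart, no difference has a replicate check and no p-values were computed. The number of mice behind each library was not stated in the sources used here, the labels give no age, and Cre activity in tumor cells or in every hepatocyte cannot be read from these counts.

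Depth was alike in the libraries, at 85522287 UMIs (unique molecular identifiers, each 1 counted transcript) in 100171 barcodes of WT and 87575064 UMIs in 90147 barcodes of N-LKO. Filters left 17636 cells of WT (median depth 1390 UMIs) and 19909 cells of N-LKO (median depth 1452 UMIs), and 113 barcodes occurred among the kept cells of both libraries. Cells whose leading markers were those of hepatocytes are called hepatocyte-like, and there were 9298 of them in WT and 4085 in N-LKO. Their 10 hepatocyte markers summed to 45467 CPM (UMIs per 1000000 UMIs of the class) in WT against 32220 CPM in N-LKO, with none at 0. Summed markers of the other cell types lay between 9.67 CPM (natural killer) and 290.0 CPM (endothelial) in WT, and between 11.6 CPM (natural killer) and 662 CPM (plasmacytoid dendritic) in N-LKO. The libraries stood apart within this class, since 98.7% of WT hepatocyte-like cells fell in 4 clusters made almost wholly of WT cells and 97.3% of N-LKO hepatocyte-like cells fell in 2 clusters made almost wholly of N-LKO cells. Nus1 itself stood at 71.9 CPM in WT against 34.2 CPM in N-LKO hepatocyte-like cells, but 3′ tags need not cover the floxed segment, so this value checks no label.

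The positions of the 9 genes were taken from the GENCODE vM21 annotation of GRCm38 by gene identifier, since the deposited files carry no coordinates. All 9 are protein-coding. Tat (ENSMUSG00000001670) is on chromosome 8 (109990437 to 109999803, forward strand), and it has the shortest span of the 9 at 9.37 kb. Hpd (ENSMUSG00000029445) is on chromosome 5 (123171807 to 123182727, reverse strand), and Hgd (ENSMUSG00000022821) is on chromosome 16 (37580153 to 37632020, forward strand). Fah (ENSMUSG00000030630) is on chromosome 7 (84585159 to 84606722, reverse strand). Of the kynurenine branch, Tdo2 (ENSMUSG00000028011) occupies chromosome 3 from 81957090 to 81976202 on the reverse strand, and Afmid (ENSMUSG00000017718) occupies chromosome 11 from 117825924 to 117839908 on the forward strand. Kmo (ENSMUSG00000039783) occupies chromosome 1 from 175620381 to 175662116 and Kynu (ENSMUSG00000026866) chromosome 2 from 43555329 to 43682715, both on the forward strand. Haao (ENSMUSG00000000673) occupies chromosome 17 from 83831156 to 83847963 on the reverse strand. Kynu, at 127 kb, spans the most sequence. Hpd and Afmid each overlap 1 annotated gene on their own strand (Gm26745 and Gm20708), so UMIs of these pairs could have been split or dropped in counting.

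RefSeq (GRCm38.p6) gave the promoter window, 250 bases before to 50 after the start, for 8 of the 9 genes, all but Kynu. Its starts differ from the ends of the GENCODE spans above. The Kmo window (175631943 to 175632242) lies inside the Kmo span, which starts at 175620381, and those of Fah, Tdo2 and Haao also lie inside their spans. A match, or the lack of one, therefore holds for these windows only. The windows of 4 genes are shown because they mark the ends of the range described below: Tat with the largest difference between the libraries, Fah with the smallest, Haao with the largest of the kynurenine branch in the main comparison, and Tdo2 as its opening step. Capitals mark matches, on either strand, to any of 5 motifs. These were the TATA box, spelled TATAAA here, and the box spelled CCAAT. The motif of C/EBP factors was spelled TTGCNNAA. For the glucocorticoid receptor and HNF1 factors only a partial site was searched, spelled TGTTCT and GTTAAT, so a match is not a full site. None of these spellings contains another.
Tat, chr8:109990186-109990485, forward strand: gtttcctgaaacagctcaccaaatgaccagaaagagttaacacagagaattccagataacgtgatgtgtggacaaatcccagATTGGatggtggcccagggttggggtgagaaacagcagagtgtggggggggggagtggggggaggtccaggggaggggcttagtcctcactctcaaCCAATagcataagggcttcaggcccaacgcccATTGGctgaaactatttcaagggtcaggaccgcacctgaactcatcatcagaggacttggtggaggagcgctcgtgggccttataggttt
Fah, chr7:84605893-84606192, reverse strand: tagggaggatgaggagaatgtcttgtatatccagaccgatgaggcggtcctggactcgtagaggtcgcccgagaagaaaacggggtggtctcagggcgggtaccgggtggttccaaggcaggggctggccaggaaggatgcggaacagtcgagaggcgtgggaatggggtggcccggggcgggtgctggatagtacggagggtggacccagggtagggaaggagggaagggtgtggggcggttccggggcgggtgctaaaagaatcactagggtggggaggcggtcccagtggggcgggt
Tdo2, chr3:81975679-81975978, reverse strand: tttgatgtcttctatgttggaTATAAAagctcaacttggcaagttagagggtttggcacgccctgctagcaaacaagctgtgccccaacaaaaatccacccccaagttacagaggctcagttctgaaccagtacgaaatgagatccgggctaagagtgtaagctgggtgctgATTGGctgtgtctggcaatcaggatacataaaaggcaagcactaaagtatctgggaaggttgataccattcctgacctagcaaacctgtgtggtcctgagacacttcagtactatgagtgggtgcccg
Haao, chr17:83846741-83847040, reverse strand: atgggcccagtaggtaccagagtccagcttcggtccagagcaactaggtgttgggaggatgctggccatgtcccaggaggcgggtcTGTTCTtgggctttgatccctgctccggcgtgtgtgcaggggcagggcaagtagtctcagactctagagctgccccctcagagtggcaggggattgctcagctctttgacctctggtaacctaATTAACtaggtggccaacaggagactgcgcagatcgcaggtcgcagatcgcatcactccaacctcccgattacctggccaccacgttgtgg
The Tat window held 3 CCAAT boxes, and the Fah window held none of the 5 motifs. TATAAA was found in 2 of the 8 windows (Hgd and Tdo2) against 13.6% of 32851 promoters in the table, and CCAAT in 3 of 8 (Tat, Hgd and Tdo2) against 37.4%. TTGCNNAA was found in 1 of 8 (Hgd) against 10.8%, TGTTCT in 2 of 8 (Kmo and Haao) against 19.0%, and GTTAAT in 1 of 8 (Haao) against 7.1%. A match describes letters only, and no motif was shared by all members.

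All 9 transcripts were lower in N-LKO than in WT hepatocyte-like cells, and every one of the 9 intervals lay below 0. Across all genes tested (at least 5 CPM in 1 library), 17.7% had an interval wholly below 0. The 9 members had a median log2 ratio (N-LKO over WT) of -0.77, where the median of 10590 genes was 0.37. Past a fold of 1.5, 5 of the 9 members were lower (Tat, Hpd, Hgd, Afmid and Haao) against 6.94% of all genes, and 0 were higher against 39.1% of all genes. Intervals are at 95% and cover counting error only. In the same cells the mitochondrial share of UMIs was 19.5% for WT against 15.3% for N-LKO, and its part in these ratios was not tested beyond the limit of 10% given with the genes below. Because the median gene itself sat at 0.37, the ratios were also taken relative to that gene. On that scale the members ran from -1.85 (Tat) to -0.60 (Fah), all 9 were past 1.5-fold lower, and the background changed as well, to 18.8% of genes lower and 22.2% higher. Of all genes past the fold, 84.9% were higher in N-LKO as first scaled, 54.1% relative to the median gene, and 70.5% with a total that left out mitochondrial and the 50 most abundant genes.

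Tat, the aminotransferase that opens tyrosine breakdown, had 13687 UMIs in WT and 2632 in N-LKO, or 877 CPM against 314 CPM. Its log2 ratio was -1.48 (interval -1.54 to -1.42), or -1.85 relative to the median gene, and 0.982% of genes tested had a lower ratio. This was the largest difference among the 9, except in settings that gave nearly the same values. Without the Malat1-rich N-LKO cluster described below, Kynu (-1.53) passed Tat (-1.26). At a clustering resolution of 0.8 Kynu (-1.54) did so as well, and Hgd (-1.273) lay just past Tat (-1.268).
Hpd, the dioxygenase that makes homogentisate, was counted at 666 CPM in WT against 389 CPM in N-LKO (log2 ratio -0.77, interval -0.83 to -0.72). Its ratio depended on the setting, at -1.56 with a mitochondrial limit of 10%, -0.34 at a clustering resolution of 0.8, and 1.28, the opposite direction, with free RNA subtracted. Hgd, which opens the ring of homogentisate, was counted at 470.3 CPM in WT against 277 CPM in N-LKO, also at -0.77 (interval -0.83 to -0.70). The intervals of Hpd and Hgd overlapped almost entirely.
Fah, the hydrolase of the last step, whose loss causes hereditary tyrosinemia, was counted at 201 CPM in WT against 171 CPM in N-LKO. Its log2 ratio of -0.23 (interval -0.33 to -0.14) was the smallest of the 9, and 17.8% of genes tested were lower. At a mitochondrial limit of 10% it was -0.79, and Kmo (-0.65) was then the smallest. In cells with under 0.5% of UMIs from Malat1, Tdo2 (-0.18) was smaller than Fah (-0.31). The order within the branch was not fixed, since Hgd and Tat were level (both -1.26) and Hpd was at -0.34 without the Malat1-rich N-LKO cluster.

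Tdo2, the dioxygenase that opens tryptophan breakdown, had 19508 UMIs in WT and 7155 in N-LKO, or 1249.6 CPM against 854 CPM. Its log2 ratio was -0.55 (interval -0.59 to -0.51), or -0.92 relative to the median gene. Afmid, the formamidase that releases kynurenine, was the sparsest member, with 1069 UMIs in WT and 325 in N-LKO. Its levels of 68.5 CPM and 38.8 CPM gave a log2 ratio of -0.82 with the widest interval of the 9 (-1.0 to -0.64).
Kmo, a hydroxylase of the outer mitochondrial membrane, was counted at 222 CPM in WT against 149 CPM in N-LKO (log2 ratio -0.57, interval -0.67 to -0.48). Kynu, the hydrolase that follows it, was counted at 779.7 CPM in WT against 557 CPM in N-LKO (log2 ratio -0.49, interval -0.53 to -0.44). Haao, which makes the precursor of quinolinate on the way to NAD, was counted at 259 CPM in WT against 138 CPM in N-LKO. Its log2 ratio of -0.90 (interval -1.0 to -0.81) was the largest of the kynurenine branch in this setting. Kynu passed it without the Malat1-rich N-LKO cluster (-1.53 against -0.81) and at a clustering resolution of 0.8 (-1.54 against -0.82). The values of all 9 members nearly coincided between that resolution and the setting without that cluster, so these are not separate checks. In cells with under 0.5% of UMIs from Malat1, Kynu passed Haao as well (-1.10 against -0.80). With free RNA subtracted, Haao (-0.14) was passed by Kynu (-1.36), Kmo (-0.87), Tdo2 (-0.57) and Afmid (-0.53). With no mitochondrial limit, Afmid (-0.94) lay just past Haao (-0.93). In cells with over 1.5% of UMIs from Malat1, Tdo2 (-1.04) passed Haao (-0.97). In the main setting, Tdo2, Kmo and Kynu lay close together, while the interval of Haao lay wholly below those of these 3 genes.

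**Figure D1:**
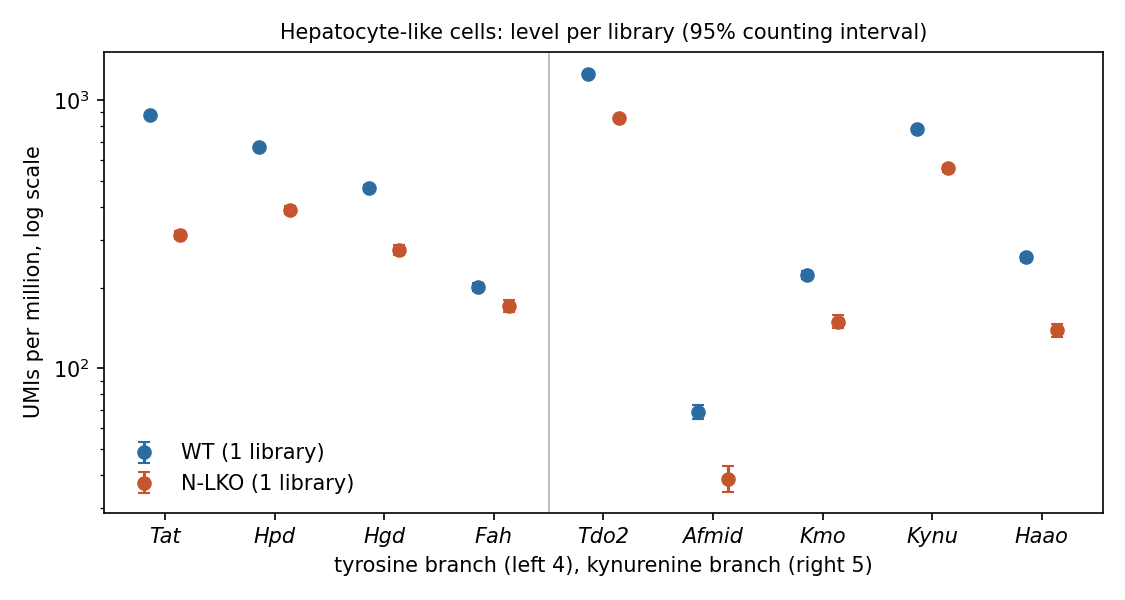
Level of each of the 9 genes in hepatocyte-like cells, in CPM on a log scale, with WT in blue and N-LKO in orange (1 library each) and bars for the 95% counting interval. Every N-LKO point lies below its WT point, with the widest gap for Tat (877 against 314) and the narrowest for Fah (201 against 171).

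The share of cells with at least 1 UMI followed the levels. Cells were thinned to 1000 UMIs each so that depth could not set the share, and no kept cell was shallower. Tat was found in 56.3% of WT hepatocyte-like cells (interval 55.3 to 57.3%) and 24.7% of N-LKO cells (23.3 to 26.0%). Tdo2 was found in 69.7% against 49.3%, Hpd in 47.8% against 28.2% and Kynu in 47.9% against 37.6%. Fah was found in 18.3% against 15.3%. Without thinning, the Tat shares were 71.0% and 39.5%, at median depths of 1501 and 1759 UMIs. In T-like cells (a class led by markers of T and natural killer cells), which should lack these enzymes, Tat was still found in 30.3% of WT cells and 8.60% of N-LKO cells after thinning (median depths of 1189 and 1352 UMIs), a measure of the free RNA in the droplets.

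Gene span moved with the ratio between the libraries. Of the 10590 genes tested, 10585 had a span in the annotation. The median log2 ratio went from -0.07 for the 2208 genes under 10 kb, through 0.12 (10 to 20 kb), 0.32 (20 to 40 kb) and 0.62 (40 to 80 kb), to 0.90 for the 2134 genes over 80 kb. Every member was below the median of the genes of like span. Tat, in the shortest group, lay 1.42 log2 units under it, Hgd and Kynu, in the longer groups, each lay 1.39 under it, and Kmo lay 1.20 under it. Fah was again nearest, at 0.55 under the median of its span group. The share of genes of like span with a lower ratio was 1.81% for Tat and for Hgd, 2.95% for Kmo, 3.42% for Kynu, 3.75% for Haao and 15.5% for Fah. By distance from the median of like genes, Hgd and Kynu thus lay near Tat.

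**Figure D2:**
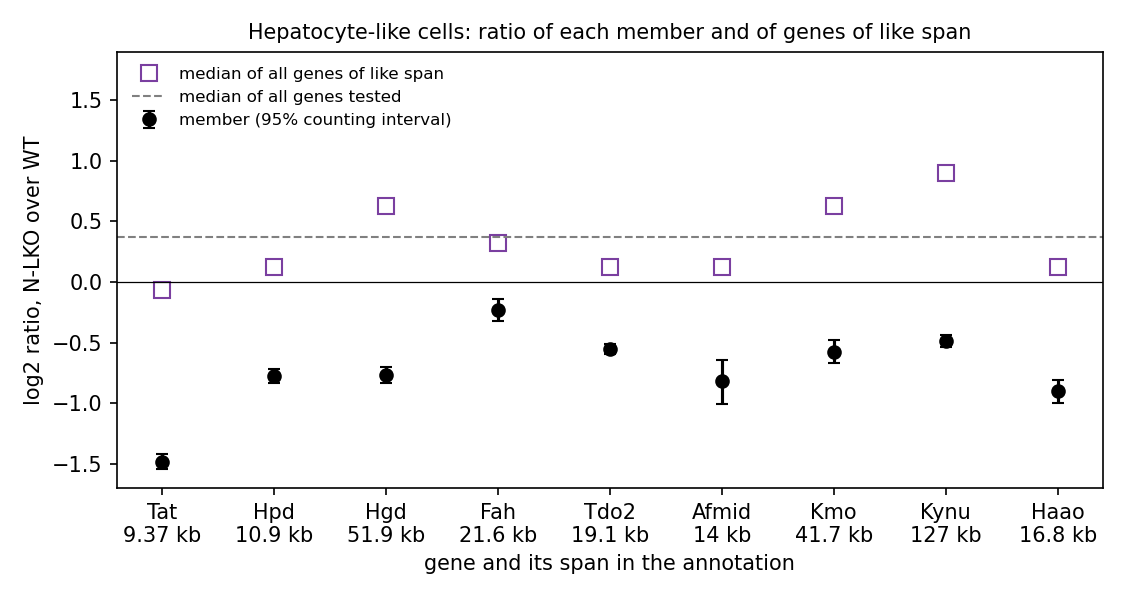
Log2 ratio of N-LKO over WT in hepatocyte-like cells for the 9 genes (black points, 95% counting interval), with the gene span in kb under each name, the median of all genes of like span (open squares) and the median of all genes tested (dashed line, 0.37). Each member lies below its own square, with Fah nearest to it.

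Clusters within the hepatocyte-like class differed widely in Malat1, a nuclear long noncoding RNA that marks cells with a high share of nuclear RNA. The main WT cluster (7481 WT cells, led by Ccdc152, Ncam2 and Slc7a2) held 8897 CPM of Malat1. A Malat1-poor WT cluster (1198 cells) held 1588 CPM and a Malat1-rich one (327 cells) held 35757 CPM. The last WT cluster was small and pericentral (174 cells, led by Gulo and Slc1a2, with Glul and Cyp2e1 among its leading genes). In N-LKO, 1 cluster (1995 cells, led by A2ml1, Dnajc12 and Serpina1e, with Orm1 among its leading genes) held 4513 CPM of Malat1. The other (1981 cells, with Eda, Grip1 and Prlr among its leading genes) held 19933 CPM and had the lowest hepatocyte score that still passed (3 raised markers), with Alb at 4332 CPM against 16361 CPM in the first.

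Tat was lower in both N-LKO clusters than in each WT cluster, with 361 CPM (interval 344 to 379) in the Malat1-lower and 251 CPM (235 to 267) in the Malat1-rich N-LKO cluster. In WT it was at 879 CPM in the main cluster, 697 CPM in the Malat1-poor cluster and 1557 CPM in the Malat1-rich cluster. Its lowest WT value, 421 CPM in the pericentral cluster, had an interval of 347 to 506 that overlapped that of the Malat1-lower N-LKO cluster. The 117 WT cells that fell in the Malat1-lower N-LKO cluster held 445 CPM of Tat (364 to 539), an interval that also overlapped that of its N-LKO cells. The 82 N-LKO cells that fell in the main WT cluster held 406 CPM (311 to 521) against 879 CPM in its WT cells.
Hpd and Tdo2 differed widely between the N-LKO clusters. Hpd was at 510 CPM in the Malat1-lower and 222 CPM in the Malat1-rich N-LKO cluster, where the 4 WT clusters ranged from 643 to 869 CPM. Tdo2 was at 1094 CPM and 544 CPM in the same N-LKO clusters, where the WT clusters ranged from 1130 to 1264 CPM. For both genes the Malat1-lower N-LKO cluster was thus much closer to the WT clusters than the Malat1-rich one. The few cells that shared a cluster with the other library gave the opposite direction for Hpd in both clusters and for Tdo2 in the first. In the Malat1-lower N-LKO cluster, 117 WT cells held 377 CPM of Hpd (interval 302 to 464) against 510 CPM (489 to 531) in N-LKO cells, and 856 CPM of Tdo2 (742 to 983) against 1094 CPM (1063 to 1125). In the main WT cluster, 82 N-LKO cells held 845 CPM of Hpd (705 to 1006) against 643 CPM in WT cells, while Tdo2 was at 1298 CPM (1122 to 1493) against 1264 CPM.
Kynu and Hgd took the opposite order. Kynu was at 268 CPM in the Malat1-lower and 911 CPM in the Malat1-rich N-LKO cluster, and in WT at 216 CPM in the Malat1-poor, 769 CPM in the main and 2562 CPM in the Malat1-rich cluster. Hgd was at 191 CPM and 376 CPM in the N-LKO clusters and at 423, 453 and 1070 CPM in the same 3 WT clusters. In the pericentral WT cluster, with 3147 CPM of Malat1, Kynu was at 253 CPM and Hgd at 264 CPM. Kynu therefore followed the order of Malat1 over the WT clusters, and Hgd did so apart from the pericentral cluster. Fah varied least, between 161 and 218 CPM in every cluster other than the Malat1-poor WT cluster, where it was at 350 CPM.

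Since the clusters were split by library, cells were also compared at like Malat1 shares. Of WT hepatocyte-like cells, 46.4% had under 0.5% of their UMIs from Malat1 and 15.2% had over 1.5%, and of N-LKO cells 37.4% and 29.0% did. All 9 members were below 0 in each of the 3 ranges of Malat1, with medians of -0.77 (under 0.5%), -0.79 (0.5 to 1.5%) and -0.86 (over 1.5%), where the medians of all genes were 0.10, 0.45 and 0.44. The intervals of 8 members lay wholly below 0 in all 3 ranges, and those of Fah reached 0.00 in the middle and upper range. Single members moved with the range. Hpd went from -0.39 in the lowest range to -1.36 in the highest, Tdo2 from -0.18 to -1.04 and Tat from -1.12 to -1.87, while Kynu went the other way, from -1.10 to -0.47.
Within each library, Malat1-rich cells held more of the members with long spans. Kynu was 1.48 log2 units higher in WT cells over 1.5% Malat1 than in those under 0.5%, and 2.11 higher in N-LKO. Hgd was 0.86 higher in WT and 1.08 higher in N-LKO, and Kmo was 0.43 and 0.30 higher. Tat was 0.50 higher in Malat1-rich WT cells, but at -0.25 in N-LKO, and the intervals (0.43 to 0.56 and -0.39 to -0.12) did not overlap. Hpd was at -0.14 in WT and -1.11 in N-LKO, and Tdo2 at 0.01 in WT and -0.85 in N-LKO. For genes over 80 kb the median of this within-library difference was 0.94 in WT and 1.84 in N-LKO, and for genes under 10 kb it was -0.31 and -1.07. How far counted intronic reads set these differences was not tested.

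**Figure D3:**
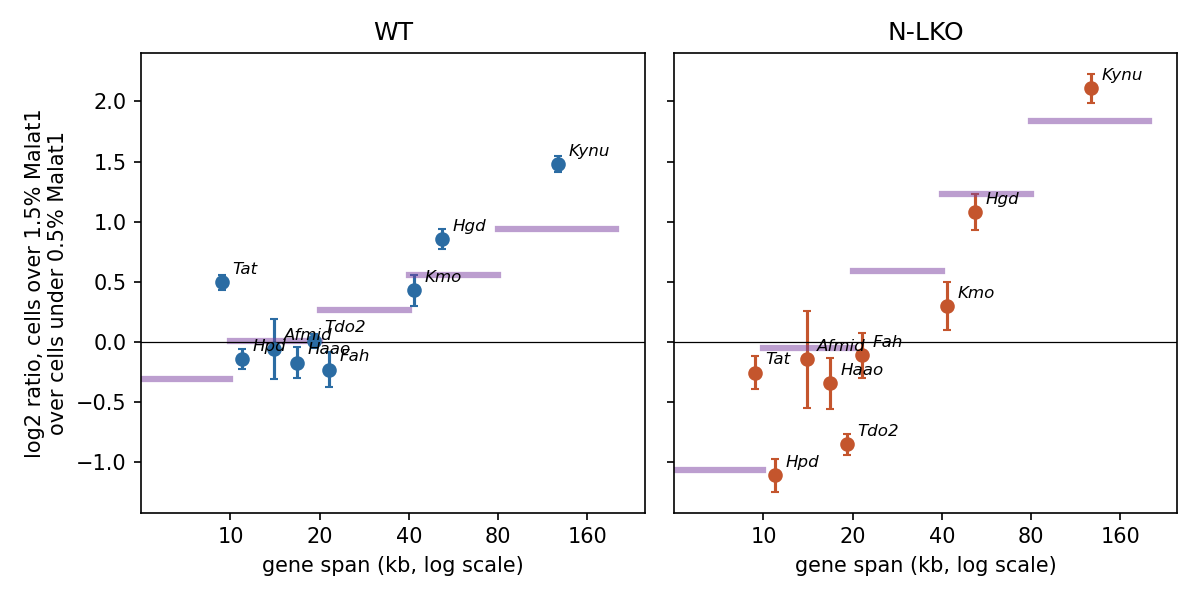
Log2 ratio of Malat1-rich (over 1.5% of UMIs) over Malat1-poor (under 0.5%) hepatocyte-like cells within WT (left) and N-LKO (right), against gene span in kb on a log scale, for the 9 genes (points, 95% counting interval) and the median of all genes in 5 span groups (bars). Kynu, with the longest span, is highest in both panels (1.48 and 2.11), and Hpd lies at -0.14 in WT and at -1.11 in N-LKO.

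To compare positions along the lobule, hepatocyte-like cells of each library were split in 3 equal groups, called zones here, by a score of pericentral over periportal genes that holds no member. Cells were ranked within each library, so zones of the same name hold different ranges of the score. The periportal zone reached up to a score of -0.376 in WT and -0.179 in N-LKO, with median scores of -0.717 and -0.454. How far this shift set the ratios by zone was not tested. All 9 members were lower in N-LKO in each zone, with medians of -0.60 in the periportal, -0.81 in the middle and -0.72 in the pericentral zone. The same values over all genes were not computed by zone. Over hepatocyte-like cells of every zone together, 29.7% of genes were below 0 and the median gene was at 0.37. Of the 27 intervals, that of Fah in the periportal zone (-0.29 to 0.01) was the one that reached 0. In WT, no member differed between the outer zones by as much as the zonation genes did, with pericentral over periportal log2 ratios between -0.42 (Kynu) and 0.12 (Fah) against 3.03 for Cyp2e1 and -1.09 for Cyp2f2. Those genes are part of the score, so their difference between zones is set by how the zones were made.
Tat had a periportal lean that was steeper in N-LKO. In WT it was at 953 CPM periportally, 891 CPM in the middle and 769 CPM pericentrally, a log2 ratio of -0.31 (interval -0.37 to -0.25). In N-LKO it was at 429.8, 273 and 224 CPM, a log2 ratio of -0.94 (interval -1.08 to -0.80). Tdo2 showed the same, with -0.22 in WT (interval -0.27 to -0.17) and -0.69 in N-LKO (-0.77 to -0.61). Hpd was flat in WT at 0.05 (interval -0.02 to 0.12) and at -0.51 in N-LKO (-0.63 to -0.39). For these 3 genes the intervals of the libraries did not overlap, so the slopes differed by more than counting error. Of the genes of the score, the periportal Cyp2f2 went from -1.09 in WT to -2.66 in N-LKO and Hal from -1.23 to -2.92. The pericentral Cyp2e1 went from 3.03 to 3.47 and Glul from 3.41 to 3.55. Because these genes set the zones, they cannot show whether a steeper slope was general, which was not tested.
In the most periportal of 6 bins, also ranked within each library, N-LKO cells came close to WT for some members. There Tdo2 stood at 1401 CPM for WT against 1349 CPM for N-LKO, Hpd at 676 and 593 CPM and Fah at 183 and 189.9 CPM, while Tat was still at 954 and 512 CPM. The N-LKO zones also differed in their clusters. The Malat1-lower cluster made up 58.3% of the periportal, 39.7% of the middle and 48.5% of the pericentral zone, and its part in these slopes was not tested. Kynu leaned periportally in both libraries (-0.42 in WT and -0.36 in N-LKO), with intervals that overlapped, and the outer zones of Hgd, Fah, Afmid, Kmo and Haao could not be told apart in either library.

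**Figure D4:**
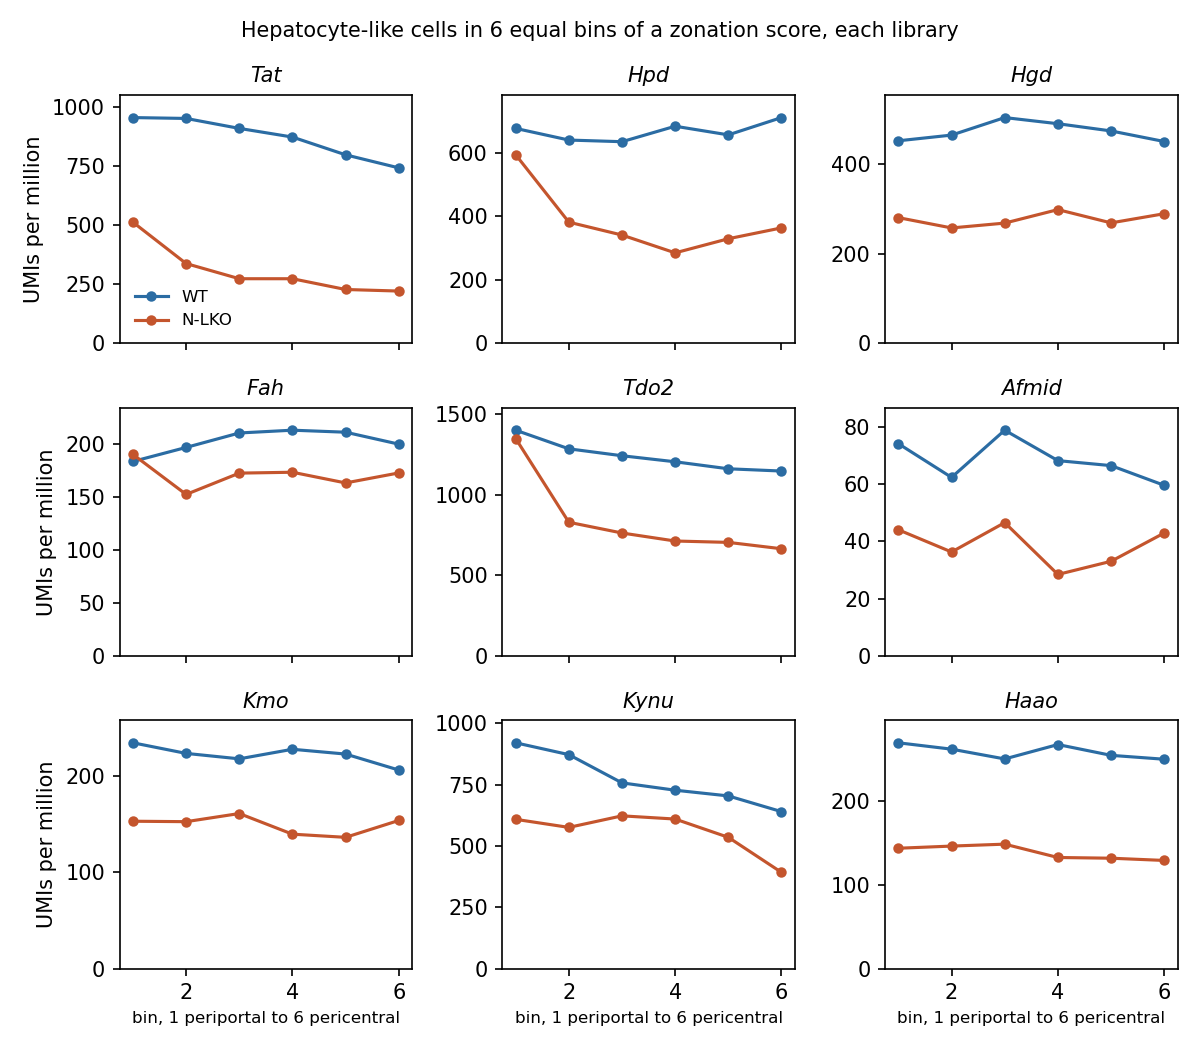
CPM of the 9 genes in 6 equal bins of hepatocyte-like cells, ranked within each library from periportal (1) to pericentral (6) by the zonation score, with WT in blue and N-LKO in orange. In bin 1 the libraries come close for Tdo2 (1401 and 1349) and Fah (183 and 189.9), and they stay apart for Tat (954 and 512).

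The genes around the 2 branches did not all share the direction. The counts of each list below stand beside 6.94% of all genes past 1.5-fold lower and 39.1% higher, and beside a median of 0.37. Of the other genes of phenylalanine and tyrosine metabolism, 5 of 6 were measured, 2 were past 1.5-fold lower and 0 higher. Qdpr, which regenerates the cofactor tetrahydrobiopterin, went from 353 to 149 CPM (-1.24), and Gstz1, which acts between Hgd and Fah, from 311 to 152 CPM (-1.03).
Of the other genes of tryptophan and NAD metabolism, 15 of 16 were measured, 2 were past 1.5-fold lower and 3 higher, and the median was 0.24. Acmsd, which diverts the pathway away from NAD, went from 35.7 to 21.9 CPM (-0.70), and Gcdh, a dehydrogenase further down the degradation route, from 211 to 103 CPM (-1.03). The 3 on the higher side were Nmnat3, a mitochondrial NAD synthesis enzyme (16.2 to 45.6 CPM, 1.49), Slc3a1, a subunit of an amino acid transporter (35.3 to 54.0 CPM, 0.61), and Nadsyn1 (5.89 to 9.78 CPM, 0.73), the last named after its values were seen. Qprt, which turns quinolinate toward NAD, went from 70.9 to 59.8 CPM (-0.25), and Ido2, another dioxygenase of tryptophan, from 77.4 to 91.1 CPM (0.24). The kynurenine members were thus lower in a list of neighbours whose median lay above 0, though below the 0.37 of all genes.

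Breakdown enzymes of other amino acids were more often lower than higher. Of 26 measured, 11 were past 1.5-fold lower (6.94% of all genes) and 2 higher (39.1% of all genes), with a median of -0.42. Oat, for ornithine, was the lowest, from 340 to 73.2 CPM (-2.21), followed by Gls2, for glutamine, from 371 to 113 CPM (-1.71). The histidine enzymes Hal (357 to 128 CPM, -1.48), Uroc1 (-1.25) and Amdhd1 (-0.85) were all on the lower side. Dbt (-0.99), Got1 (-0.93), Gcat (-0.87), Aldh4a1 (-0.81), Agxt (-0.78) and Ivd (-0.60) made up the rest. Bckdhb, a subunit of the branched-chain keto acid dehydrogenase, was higher, from 157 to 473 CPM (1.59), as was Bcat2 (0.81), named after its values were seen. Tat thus held a place near that of Hal and Gls2.

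Genes known to respond to glucocorticoids were divided in direction. Of 10 measured, 5 were below 0 and 5 above, each with an interval that excluded 0. Across all genes tested, 29.7% were below 0 and 17.7% had an interval wholly below 0. Past 1.5-fold, 1 was lower and 5 were higher, with a median of 0.54, which is near the background of all genes. Zbtb16 went from 51.3 to 442 CPM (3.11), Fkbp5, a chaperone of the receptor, from 19.3 to 163 CPM (3.07), and Mt2, a metallothionein, from 5.32 to 202 CPM (5.24). Lcn2, an acute-phase protein, went from 16.3 to 293 CPM (4.17) and Per1 from 4.36 to 10.6 CPM (1.28), the latter named after its values were seen. Dusp1 went from 168 to 102 CPM (-0.73), and Pck1 (-0.42), Sgk1 (-0.38), Igfbp1 (-0.28) and Tsc22d3 (-0.21) were also below 0. Mt2 and Lcn2 also respond to inflammation.
Among liver transcription factors, 1 of 12 was past 1.5-fold lower and 4 higher, with a median of 0.56, again near the background. Cebpa, a regulator of metabolic genes in hepatocytes, went from 93.9 to 44.1 CPM (-1.09). Cebpb (0.61), Foxa3 (0.60), Nr1i3 (0.65) and Onecut1 (2.44) were on the higher side.
Both zonation lists leaned lower. Of 9 pericentral genes, 4 were past 1.5-fold lower (Oat, Glul at -1.71, Cyp1a2 at -0.93 and Cyp2e1 at -0.85) and 1 higher (Lhpp at 0.65). Of 9 periportal genes, 5 were lower (Etnppl at -3.14, Gls2, Cyp2f2 at -1.71, Hal and Arg1 at -0.78) and 0 higher.

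Over 12 points (the 6 zonation bins of each library), the 5 genes whose log2 CPM profile was most like the mean standardised profile of the 9 members were Paics (Pearson r of 0.990), Tars (0.988), Psen2 (0.986), Slc25a23 (0.986) and Gm12718 (0.984), of 5769 genes compared. Paics was at 116 CPM on average over the WT bins and 61.2 CPM over the N-LKO bins, and Tars at 169.6 and 79.9 CPM. Of the members, Tat had the highest r with that mean (0.987), Haao followed (0.974), and Kynu the lowest (0.817). Each member is part of that mean, which raises its r by construction, so these values do not compare with those of the 5 other genes. The points of each library share 1 library and its depth, so the step between the libraries sets most of these values. Within a library the members did not form 1 pattern: Tat and Tdo2 went together over the 6 bins of both (0.87 in WT and 0.97 in N-LKO), whereas Tat and Hpd had an r of -0.60 in WT and 0.84 in N-LKO.

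In other cell classes the members were present in every library, and at levels that mostly tracked free RNA, the transcripts released by broken cells. Free RNA was described by the barcodes with under 500 UMIs in each library. The lowest barcode held 326 UMIs in WT and 377 in N-LKO, so these barcodes are not shown to be empty droplets, and every ratio to free RNA below rests on them. In them Tat stood at 637 CPM for WT against 191 CPM for N-LKO, Tdo2 at 1019 and 509.6 CPM, and Haao at 257 and 71.2 CPM. The share of free RNA in each class was taken from hepatocyte markers, and was 46.9% in WT and 47.6% in N-LKO endothelial-like cells and 37.0% and 36.3% in macrophage-like cells. Tat was at 409 CPM in WT endothelial-like cells, 1.37 times the level that free RNA alone would give, and at 120 CPM in N-LKO, 1.32 times that level. Over 11 classes other than hepatocyte-like, Tat lay between 0.910 and 1.40 times the free RNA level in WT and between 1.09 and 1.46 times in N-LKO. Hpd, Fah and Tdo2 had medians of 1.14 to 1.23 times that level. Since the share was set from hepatocyte markers, transcripts of hepatocyte origin lie near 1 by construction. These ratios therefore cannot decide whether the other classes express these genes. In hepatocyte-like cells, with the share set from nonparenchymal markers, Hpd, Fah and Tdo2 were at 1.09, 0.739 and 1.56 times in WT. In N-LKO they were at 3.97, 3.06 and 4.35 times.
The difference between the libraries in these classes lay near that of the free RNA for Tat. In endothelial-like cells 8 of the 9 members were past 1.5-fold lower against 16.9% of genes, and Kynu was higher (0.39), where the free RNA alone gave -0.55. In macrophage-like cells 8 of 9 were past 1.5-fold lower against 13.8% of genes, with Kynu at -0.18. For Tat the log2 ratio was -1.77 in endothelial-like and -2.01 in macrophage-like cells, and the difference in free RNA alone came to -1.72 and -1.76.
Hepatocyte-like cells had the highest level of 8 members in N-LKO and of 7 in WT. Tat, Hpd, Tdo2 and Kynu lay above all 11 other classes by more than counting error in both libraries. Kmo was higher in plasmacytoid dendritic-like cells in both libraries. Fah was a further exception in WT, where hepatocyte-like cells had rank 4 (201 CPM against 259 CPM in neutrophil-like cells) and the barcodes under 500 UMIs held more of it (345 CPM). In N-LKO, Fah was again highest in hepatocyte-like cells, at 171 CPM, with 96.3 CPM in B-like cells as the next.

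Kmo stood out in both dendritic classes, and Kynu in the plasmacytoid class. In plasmacytoid dendritic-like cells (216 WT and 512 N-LKO cells), a class of interferon-producing immune cells, Kmo reached 312 CPM for WT and 248 CPM for N-LKO, above hepatocyte-like cells in both libraries. That was 4.87 times (interval 3.93 to 5.97) the level from free RNA in WT and 8.99 times (7.76 to 10.4) in N-LKO. Kynu was at 447 CPM and 381 CPM in the same cells, 4.01 times (3.36 to 4.75) and 5.32 times (4.73 to 5.97) that level. In dendritic-like cells (207 WT and 492 N-LKO cells) Kmo was at 150 CPM and 111 CPM, 2.93 times (2.19 to 3.84) and 5.24 times (4.27 to 6.36) that level. These 3 pairs, of 99 pairs of member and class, were the ones whose interval lay above 2 times the free RNA level in both libraries, a threshold chosen after the values were seen.
After thinning, Kmo was found in 27.8% of WT (interval 21.9 to 34.3%) and 20.3% of N-LKO (16.9 to 24.1%) plasmacytoid dendritic-like cells, against 9.65% and 4.77% in the T-like class. In the same cells Tdo2 was at 1.27 times the free RNA level in WT and 1.28 times in N-LKO, and Haao at 1.60 and 2.14 times. Afmid, Kynu and Haao were above the free RNA level in most classes of N-LKO, with medians of 2.84, 2.31 and 1.82 times, so small excesses of these genes in N-LKO are not read as expression.

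**Figure D5:**
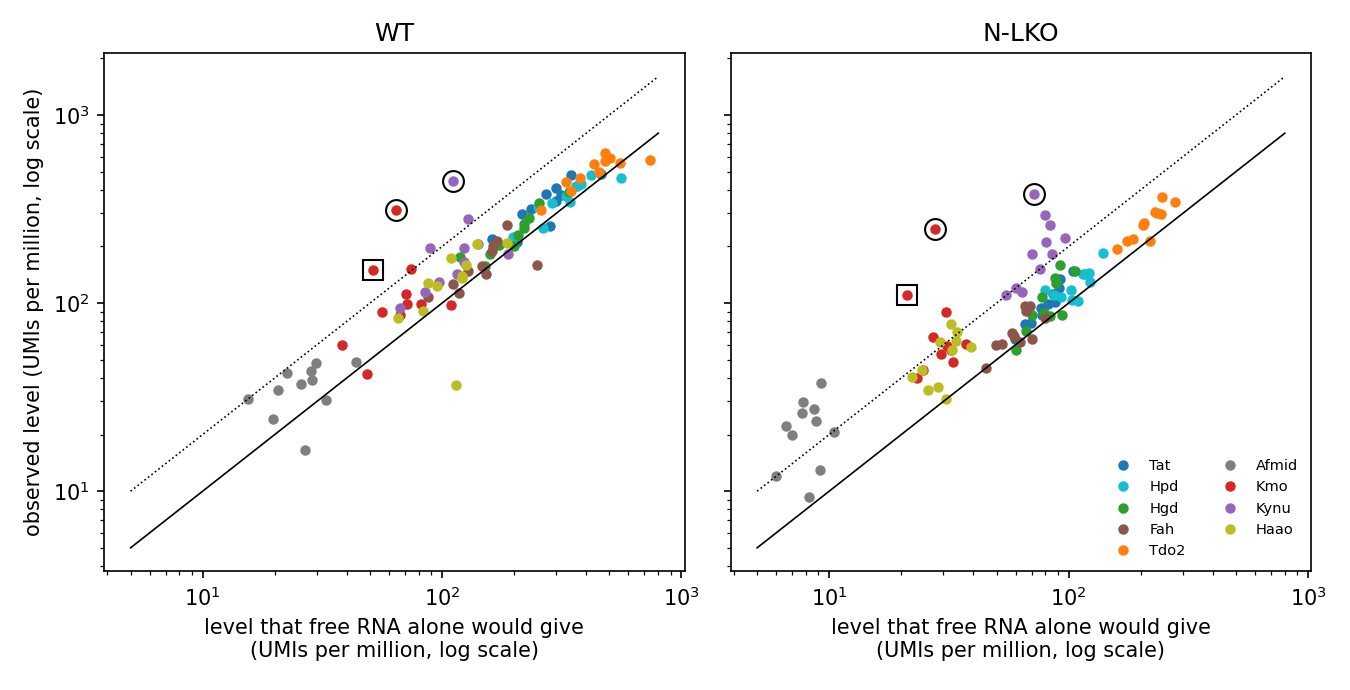
Observed level of the 9 genes (colors) in 11 classes other than hepatocyte-like against the level that free RNA alone would give, in CPM on log axes, for WT (left) and N-LKO (right); the solid line is equality and the dotted line 2 times. Circles mark Kmo and Kynu in plasmacytoid dendritic-like cells and squares mark Kmo in dendritic-like cells, which lie above the dotted line in both panels.

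Free RNA also bears on the hepatocyte-like cells themselves. From markers of nonparenchymal cells its share there was estimated at 78.9% in WT and 38.5% in N-LKO, or at 32.4% and 20.2% with a profile of all barcodes. The estimate, and with it the subtraction, thus depends on the profile. The barcodes under 500 UMIs showed the same direction for all 9 members, from -0.57 (Kynu) to -1.86 (Haao). After subtraction, Fah had no UMIs left in WT and is given no ratio, Hpd turned to 1.28, and the other 7 members stayed below 0, with Tat at -1.77 and Kynu at -1.36, but with Hgd at -0.13 and Haao at -0.14. Without the Malat1-rich N-LKO cluster all 9 members stayed below 0, with Kynu at -1.53 and Hgd at -1.26 further down and Hpd at -0.34 and Tdo2 at -0.18 closer to WT.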

How the data were processed

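The values the authors deposited were UMI counts per gene and barcode from 1 WT and 1 N-LKO 10x 3′ library, made with Cell Ranger (7.1.0 per the file headers) and not normalized. The submitters' processing notes list the build mm9 and Seurat, while 32158 of the 32285 gene identifiers occur in GENCODE vM21 (GRCm38), so positions here come from that annotation and are not the authors'. Whether reads in introns were counted was not given in the sources used here. The authors' cell annotation was not used, and classes were rebuilt, so a difference from the study may come from the rebuilt names.

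Barcodes with at least 1000 UMIs, 400 genes and at most 30% mitochondrial UMIs were kept. Scrublet (scanpy 1.11.5) scores over 0.25 removed 12.5% of WT and 10.4% of N-LKO barcodes as doublets. Clustering used 2000 variable genes, 30 components, 20 neighbors and leidenalg 0.10.2 at a resolution of 0.3, without integration. Clusters were named by marker scores of at least 0.2 with at least 3 raised markers, thresholds set after seeing the data; 849 WT and 1978 N-LKO cells stayed mixed. UMIs were summed per class and library and scaled to CPM. CPM carries exact Poisson, shares exact Clopper-Pearson and log2 ratios (0.5 UMI added) exact conditional binomial intervals, at 95%, with no test across samples because each group had 1 library. UMIs number from 8382876 to 15611414 in the hepatocyte-like sums. Code for ratios and free RNA shares was checked on simulated data.

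The 9 members, the gene lists and the markers were chosen with earlier results of these data known. Named genes are the 9 members, list genes past 1.5-fold with at least 20 CPM in 1 library, and the 5 genes of most similar profile. List genes outside this rule were also named: Qprt, Ido2, Pck1, Sgk1, Igfbp1 and Tsc22d3, which were not past 1.5-fold, and Nadsyn1, Bcat2 and Per1, which were under 20 CPM. Alternatives changed the UMI, mitochondrial and doublet limits, the resolution, the scaling, the clusters included and the free RNA. Python 3.11.15, numpy 2.4.6, scipy 1.17.1 and pandas 2.3.3 were used. Values of 1 gene of the phenylalanine and tyrosine list, and the median of that list, are not reported here.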

Additional observations from a re-analysis of the deposited data

How the results depend on the processing

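The 9 members were computed under 16 other settings, 5 of them chosen after seeing the data. The resolution of 0.8 and the setting without the Malat1-rich N-LKO cluster gave nearly the same values, so they are not separate checks. The count of members lower in N-LKO was 9 in all of them but 1, where it was 7 of 8 after subtraction of free RNA, which left Fah without a value. Of 143 single values 142 were below 0, and the exception was Hpd at 1.28 after that subtraction. The median of the members was -0.77, and it went to -1.0 at a mitochondrial limit of 10% and to -0.55 with free RNA subtracted. It was -1.13 when scaled by the median gene, and -0.97 with a total that left out mitochondrial and the 50 most abundant genes. In cells with over 1.5% of UMIs from Malat1 it was -0.86. A setting that left out clusters high or low in Malat1 gave -0.69. That setting kept the Malat1-rich N-LKO cluster, since Kynu was at -0.43 in it against -1.53 without that cluster. The 2 scalings moved all genes alike by construction, and the cause of the other shifts was not tested. The count of members past 1.5-fold lower was 5, and it ranged from 3 (of 8, free RNA subtracted) to 9 (mitochondrial limit of 10%, and scaling by the median gene). Of all genes past 1.5-fold, 84.9% were higher in N-LKO, against 54.1% when scaled by the median gene and 70.5% with the reduced total. Filters of 1 and 20 CPM gave 7.61% and 7.94% of genes past 1.5-fold lower, and 42.2% and 37.9% higher. With the free RNA profile taken from all barcodes, 2 pairs of member and class, Kmo and Kynu in plasmacytoid dendritic-like cells, remained above 2 times free RNA in place of 3, since Kmo in dendritic-like cells was no longer among them. No paired analysis was possible because each group had 1 library. A gene listed at few UMIs cannot be told from free RNA at a median of 1390 to 1452 UMIs per cell.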
